A study of Mus musculus with 7 samples.

Results

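The molecular chaperones followed here are 10 genes, taken by name from the 28719 gene rows that appear in any count file. Of these, 4 are stress-induced (Hspa1a, Hspa1b, Dnajb1, Hsp90aa1), 3 are constitutive cytosolic chaperones (Hspa8, Hsp90ab1, Dnaja1), 2 work in the endoplasmic reticulum (ER; Hspa5, Hsp90b1) and 1 is mitochondrial (Hspe1). They were measured by droplet-based single-cell RNA sequencing in neutrophils sorted as live (propidium iodide negative) CD11b+ Ly6G+ cells on ice, from male wild-type C57BL/6J mice. Blood, bone marrow and spleen of healthy mice were sampled in 2 runs, at 6 weeks of age in run 1 and 8 weeks in run 2, and each library held cells pooled from 3 mice. A 7th library held 5 conditions marked by hashtag antibodies. Mice given serum or IL-1β were 8 weeks old at the first dose, and the age of the healthy blood donors of this library is not given in the sources used here. They were healthy blood, blood and joint lavage on day 7 of arthritis induced by K/BxN serum (150 µl on day 0 and day 2), lung lavage 3 h after 25 ng of intranasal IL-1β, and peritoneal lavage 3 h after 25 ng of intraperitoneal IL-1β. K/BxN serum carries arthritogenic antibodies, and IL-1β is an inflammatory cytokine. Each of the 5 conditions was sampled once, without a replicate.

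Chaperones bind unfolded or newly made proteins and help them reach their native shape. Cells under heat or oxidative stress switch on Hspa1a, Hspa1b and Dnajb1 through heat shock factor, whereas misfolded protein in the ER switches on Hspa5 and Hsp90b1 through the unfolded protein response. Neutrophils make most of their granule proteins, through the ER, while they mature in the marrow, and circulating cells make far less protein.

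Healthy cells were kept as neutrophils where S100a8 and S100a9, the most abundant neutrophil transcripts, made up at least 3% of the unique molecular identifiers (UMIs, counted RNA molecules). This left 12755 of 16907 cells. In spleen of run 2 only 2010 of 4353 cells passed (46.2%), against 78.9% to 94.9% in the other 5 libraries. In the inflammation library 4852 of 4856 cells carried a granulocyte annotation. The neutrophils of a healthy library summed to between 1360064 and 9104133 UMIs, with a median of 775 to 2699 per cell, and those of a condition to between 942688 and 10293966. All 15 neutrophil marker genes were found in every library and condition, at a summed level of 161385 to 503781 counts per 1000000 UMIs. The 7 libraries form 21 pairs, which shared 160 cell barcodes in sum. The 3 files of run 1 list only genes with at least 11 UMIs, so Hspa1a and Hspa1b, unlisted there, had at most 10 UMIs in each of those libraries. The other 8 genes were listed in all 7 files. Levels are given as counts per 1000000 UMIs of the same cells (CPM). In pooled cells, fewer cells with a transcript and fewer copies per cell cannot be told apart.

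The promoters of the ER pair are shown because both genes carry the same sequence element and both passed the test between marrow and blood. The ER stress element, searched as CCAAT and CCACG with 9 bases between them on either strand, is bound by ATF6 with a partner at the CCAAT box. Of 27025 mouse genes with a promoter in RefSeq (GRCm38.p6), 35 genes (0.13%) held it in the 250 bases before a start site. The CCAAT box, which is part of it, lay in 33.8% of all 32851 promoters when searched alone. Promoters of 7 of the 10 chaperones were in that collection, and 2 of them held the element. Hspa5 (chr2:34771840-34772089, + strand) had 1 copy and Hsp90b1 (chr10:86705445-86705694, - strand) had 2 copies, set in capitals.

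Hspa5: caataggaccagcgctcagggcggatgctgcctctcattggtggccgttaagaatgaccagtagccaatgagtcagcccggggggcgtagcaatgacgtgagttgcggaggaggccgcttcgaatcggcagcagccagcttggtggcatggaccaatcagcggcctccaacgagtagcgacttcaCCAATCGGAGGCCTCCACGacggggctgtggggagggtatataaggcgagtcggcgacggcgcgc

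Hsp90b1: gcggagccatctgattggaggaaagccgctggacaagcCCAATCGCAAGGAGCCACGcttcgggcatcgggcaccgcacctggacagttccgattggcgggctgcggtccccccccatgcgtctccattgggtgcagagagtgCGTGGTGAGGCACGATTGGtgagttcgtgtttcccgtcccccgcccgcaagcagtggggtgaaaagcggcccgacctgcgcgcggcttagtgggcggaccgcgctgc

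The heat shock element was searched on either strand as GAA, TTC and GAA with 2 bases between neighbours, its strict form of 3 alternating repeats. It was found in 139 of the 27025 genes (0.514%), and Hspe1 (chr1:55087898-55088147, + strand) was the single chaperone among the 7 that held it. There 2 overlapping copies lay between 89 and 72 bases before the start, and are shown in capitals because this is the element that heat shock factor binds.

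Hspe1: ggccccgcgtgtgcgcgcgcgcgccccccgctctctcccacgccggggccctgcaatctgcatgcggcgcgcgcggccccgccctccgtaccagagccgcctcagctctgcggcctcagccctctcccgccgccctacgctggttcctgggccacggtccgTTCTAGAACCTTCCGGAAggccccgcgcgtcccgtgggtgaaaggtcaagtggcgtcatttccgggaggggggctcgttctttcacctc

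Hspa1a and Hspa1b did not hold this strict form in the 250 bases searched, which says only that those letters are not in that window. The 2 genes, single-exon neighbours on chromosome 17 (34969190-34972156 and 34956436-34959238, GRCm38, - strand), encode nearly the same HSP70 protein. Their last 500 transcript bases differ enough that none of the 405 windows of 96 bases, the length of the cDNA read, was shared with any other gene. For Hspa8 (chromosome 9, 40800984-40810087, + strand) 79.5% of such windows also lay in transcripts of processed copies such as Gm15459, and for Hspe1 35.1% did. The other 8 genes shared none. Hspa8 and Hspe1 counts are therefore uncertain where reads could not be placed.

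The inducible HSP70 genes were close to undetectable in every neutrophil library. In run 2, Hspa1a had 10 UMIs in blood, 1 in bone marrow and 13 in spleen. In the inflammation library it had 2 in healthy blood, 4 in K/BxN blood, 9 in joint, 1 in lung and 0 in peritoneum. Its level stayed at or under the 6.64 CPM of spleen of run 2. Hspa1b was as sparse: it had 8, 0 and 1 UMIs in blood, marrow and spleen of run 2, and 4, 7, 20, 0 and 3 UMIs in healthy blood, K/BxN blood, joint, lung and peritoneum. For the Hspa1a count of 0 in peritoneum, the floor of 3 UMIs used for folds equals 3.18 CPM and the exact 95% upper limit is 3.91 CPM. The levels of these genes were too low to order the groups. For run 1 the absence from the files allows at most 7.35, 2.35 and 3.72 CPM in blood, marrow and spleen.

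Dnajb1, the HSP40 partner that hands clients to HSP70, was detected in all 11 groups and varied 2.44-fold among them. Its level was 30.1, 19.8 and 16.7 CPM in blood, marrow and spleen of run 1, and 40.2, 22.7 and 40.9 in run 2. The conditions of the inflammation library lay between 21.2 in lung and 38.6 in joint, with 27.6 in healthy blood. All 3 blood values of healthy mice lay above both marrow values, spleen spanned the whole healthy range, and the counting intervals of the inflamed sites overlapped with that of healthy blood in the same library. Summed over Hspa1a, Hspa1b and Dnajb1, no neutrophil held more than 2 UMIs in any healthy library, and 3 of 2857 joint cells held 3 or more.

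Hsp90aa1, the inducible cytosolic HSP90, followed another pattern from the other stress-induced genes. It stood at 27.9, 35.8 and 15.6 CPM in blood, marrow and spleen of run 1 and at 60.04, 45.7 and 84.3 in run 2. In the inflammation library it was at 80.9 in healthy blood, 55.7 in K/BxN blood, 112 in joint, 108 in lung and 147 in peritoneum. The 3 inflamed sites were the highest of all 11 groups, though the counting interval of lung overlapped with that of spleen of run 2. Lung was 1.34 times healthy blood of its library (95% counting interval 1.02 to 1.76). Joint and lung did not differ beyond their counting intervals.

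**Figure D1:**
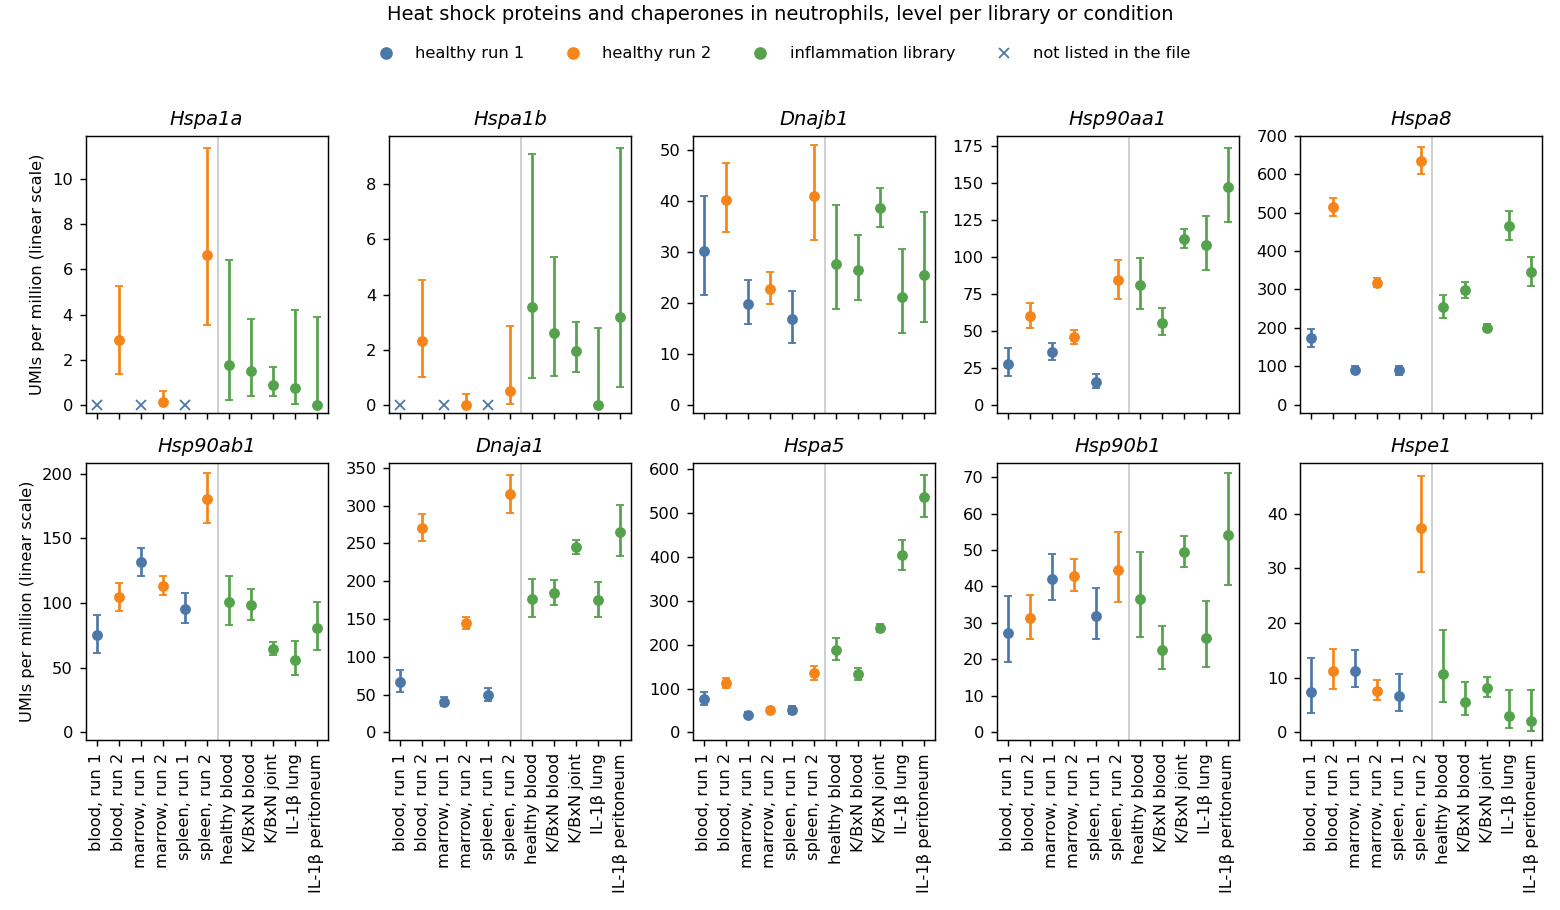
Level of each of the 10 chaperone genes (y axis, CPM on a linear scale, a separate range for each gene) in the neutrophils of each healthy library and each condition of the inflammation library (x axis). Points are single libraries or conditions with exact 95% Poisson intervals, which cover counting error only, and crosses mark genes not listed in a file. Hspa1a and Hspa1b stay under 7 CPM in the groups that list them, 6 of the 8 genes listed in run 1 (all but Hsp90ab1 and Hspe1) stand higher in run 2 than in run 1 of each tissue, and Hspa5 peaks in lung and peritoneum.

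Among the constitutive chaperones, Hspa8, the housekeeping HSP70, was at 173, 90.7 and 89.3 CPM in blood, marrow and spleen of run 1 and at 514, 318 and 634 in run 2. Dnaja1, its farnesylated HSP40 partner, was at 66.9, 40.7 and 49.1 in run 1 and 270, 144 and 315 in run 2. For both genes all run 2 libraries lay above all run 1 libraries, whatever the tissue. The run 2 level of Hspa8 was 2.98, 3.51 and 7.10 times that of run 1 in blood, marrow and spleen, against a median of 0.977, 0.952 and 1.37 times over 3090 to 3504 genes. For Dnaja1 it was 4.04, 3.55 and 6.41 times. Both genes lay above at least 96.7% of genes in each tissue. Hsp90aa1 also had every run 2 library above every run 1 library, at 2.15, 1.28 and 5.40 times in blood, marrow and spleen, above 95.5%, 84.7% and 96.1% of genes. Mouse age and Cell Ranger version differ between the runs, and their parts cannot be told apart. Other levels also moved between the runs in spleen, where the steps were largest. Immediate early genes, which respond to handling and activation, summed to 1752 CPM there in run 1 and 6903 in run 2. Ngp, a granule gene, was at 44597 and 6937. Their part in the steps was not tested.

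Hsp90ab1, the constitutive HSP90, showed no such step, and was lower in run 2 in marrow. It was at 75.0, 131 and 95.6 CPM in blood, marrow and spleen of run 1 and at 104, 113 and 180 in run 2. Hsp90b1, the HSP90 of the ER (GRP94), was at 27.2, 42.1 and 32.0 in run 1 and at 31.3, 42.9 and 44.5 in run 2. Both were lowest in blood in each run. Hspa5, the HSP70 of the ER (BiP), was at 76.5, 40.3 and 50.6 in run 1 and at 113, 50.9 and 134 in run 2, lowest in marrow each time.

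Hspe1, the mitochondrial HSP10 that caps the HSP60 folding chamber, had low levels, resting on 2 UMIs in peritoneum to 84 in joint. It was at 7.35, 11.3 and 6.70 CPM in blood, marrow and spleen of run 1 and at 11.2, 7.58 and 37.3 in run 2. Spleen of run 2 was the highest of all 11 groups for Hspe1, Hspa8, Hsp90ab1, Dnaja1 and Dnajb1. Its counting interval for Dnajb1 overlapped with those of other groups, among them both healthy blood libraries and joint. That for Dnaja1 overlapped with the interval of peritoneum. In the same cells the 8 B cell markers, all detected, summed to 903 CPM, against 330 in blood and 190 in marrow of run 2. T cell markers stood at 198 in these cells, against 33.3 in blood and 30.2 in marrow of that run. The files of run 1 list only 4 or 5 of the 8 B cell markers and 2 to 6 of the 10 T cell markers, so their sums, 22.0 and 43.5 in spleen, cover fewer genes. The left-out cells of that library held 10667 CPM of the B cell markers and 384 of Hspe1. The part of those cells in the spleen values was not tested.

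To ask how neutrophils of marrow, blood and spleen differ, UMIs summed per library were compared with edgeR's quasi-likelihood test with run as a block, over 6588 genes. Against blood, marrow neutrophils held more of 2 HSP90 members and less BiP. Hsp90b1 was 0.84 higher on the log2 scale (SE 0.24, 95% interval 0.30 to 1.38, adjusted p = 0.0249 by edgeR with Benjamini-Hochberg adjustment), and Hsp90ab1 was 0.78 higher (SE 0.24, 0.24 to 1.31, adjusted p = 0.0331). Hspa5 fell by 0.73 (SE 0.24, interval -1.25 to -0.20, adjusted p = 0.0390). Within run 1 the log2 ratios were 0.96, 1.14 and -0.60 for Hsp90b1, Hsp90ab1 and Hspa5, and within run 2 they were 0.75, 0.42 and -0.86. Thus 3 of 8 chaperones tested passed the threshold, where 31.3% of all genes did (15.2% higher and 16.0% lower), so the share of members called was near the background and is not a result about them. At an unadjusted p under 0.05 there were 4, beside 42.5% of genes. Markers of other cells moved with this contrast. In run 2, whose files list all of them, the 5 platelet markers summed to 154 CPM in blood and 3.51 in marrow, and the 7 erythroid markers to 30405 and 307. In run 1 the erythroid markers summed to 709 in blood and 917 in marrow, and the platelet markers to 97.8 in blood, while marrow lists only 1 of the 5, at 3.06. Their part in the chaperone differences was not tested.

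The ER pair moved in opposite directions between these tissues, 1 higher and 1 lower. Dnaja1 at -0.50 (adjusted p = 0.107, edgeR), Hspa8 at -0.50 (0.143), Dnajb1 at -0.41 (0.263), Hsp90aa1 at 0.31 (0.538) and Hspe1 at 0.34 (0.708) did not pass. The calls were fragile: DESeq2 called none of the 8, beside 20.1% of genes, and edgeR without the block called none, beside 5.65%. They also changed when 1 library was left out, which leaves 1 sample in a tissue. Over the 16 alternatives the log2 change ranged from 0.31 to 0.95 for Hsp90b1, from 0.45 to 1.21 for Hsp90ab1 and from -0.92 to -0.52 for Hspa5. The sign was the same in all 16 alternatives for the 3 called genes, and also for Dnaja1, Hspa8 and Dnajb1, which were not called.

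**Figure D2:**
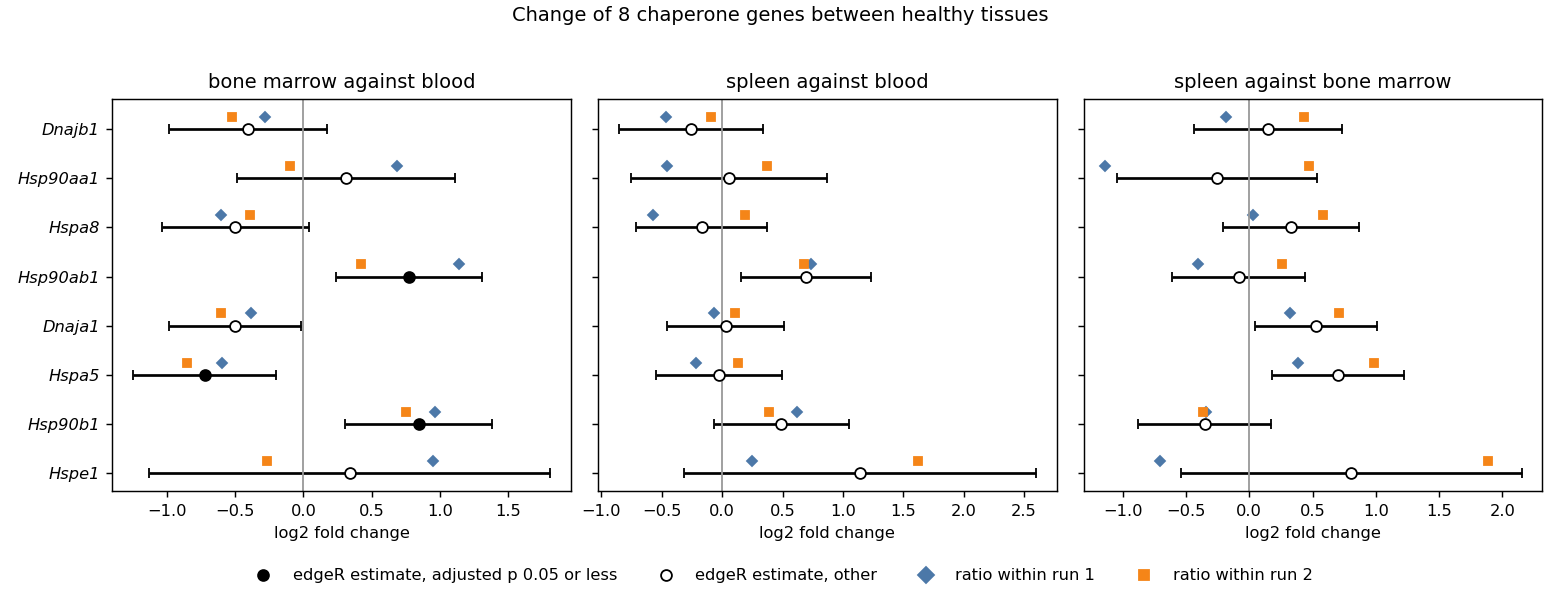
Log2 fold change of the 8 chaperones tested (rows) between healthy tissues, with edgeR's 95% interval (black), filled where the adjusted p was 0.05 or less, and the ratio within run 1 (diamonds) and run 2 (squares). In marrow against blood Hsp90ab1 and Hsp90b1 lie above 0 and Hspa5 below 0 in both runs, and no chaperone is filled in the spleen panels.

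In spleen against blood 0 of 8 chaperones passed with edgeR (0.273% of genes did) and 0 with DESeq2 (0.455%). At an unadjusted p under 0.05 there was 1, Hsp90ab1 (log2 0.69, interval 0.16 to 1.23, adjusted p = 0.346), beside 859 of the 6588 genes. In spleen against marrow 0 of 8 passed with edgeR (5.39% of genes) and 0 with DESeq2 (4.68%). At an unadjusted p under 0.05 there were 2 of 8, beside 21.2% of genes. They were Hspa5 (0.70, interval 0.18 to 1.22, adjusted p = 0.122) and Dnaja1 (0.53, interval 0.05 to 1.01, adjusted p = 0.194). The widest interval in this contrast was that of Hspe1, from -0.54 to 2.15. Hspa5 passed when cells were thinned to 500 UMIs or limited to those low in granule transcripts, at 1.05 and 1.14. In those settings 16.9% and 11.4% of all genes passed, against the 5.39% above.

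Other folding genes gave context for the marrow and blood difference. Of 13 subunits of TRiC, the cytosolic folding chamber, and its feeder prefoldin, 5 were higher in marrow and none lower, where 15.2% of all genes were higher and 16.0% lower, with a median log2 change of 0.69 against 0.00 over all genes. Tcp1 led at 1.80 (adjusted p = 0.00336, edgeR), with Pfdn1 at 1.45 and Pfdn4 at 1.37. Of 16 co-chaperones 2 were higher, Hspa14 at 0.93 and Cdc37, which brings kinases to HSP90, at 0.85. Of 6 mitochondrial chaperones Dnajc19 alone passed, at 1.61. The counts of 2 of 16 and 1 of 6 are near the share of all genes.

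Of 16 other ER chaperones and unfolded protein response genes, 2 were higher and 2 lower in marrow, near the same shares of all genes. Sdf2l1, an ER co-chaperone, was 2.42 higher, and Manf, a secreted ER stress protein, also rose. Ddit3, the stress transcription factor CHOP, fell by 1.90. Among 6 other heat shock response genes Chordc1, an HSP90 partner, was 2.00 higher and Ubb, a ubiquitin gene, fell by 0.73, also near those shares. Immediate early genes, which respond within minutes to handling and activation, were lower in marrow for 9 of 10 tested, with Jun at -3.76 and Dusp1 at -3.59. Their summed level was 762 and 1306 CPM in marrow and 5816 and 7679 in blood, and their part in the chaperone differences was not tested.

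Granule transcripts mark immature neutrophils, so each healthy library was also split by the share of UMIs from Camp, Ngp, Ltf and Lcn2. For this split alone, CPM was computed with these 4 genes left out of the total. Hsp90b1 was higher in cells with over 10% than in cells with under 1% in 6 of 6 libraries, by 2.38 to 4.33 times. In marrow it was at 71.2 against 29.9 CPM in run 1 and 94.0 against 26.9 in run 2, with exact intervals that did not overlap. In blood of run 2 the ratio rested on 12 cells and 5 UMIs. Cells with 1% to 10% lay between these classes in blood and spleen of run 1, at 32.7 and 21.7. In the other 4 libraries they lay below both, as in marrow, at 15.4 and 19.8.

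Dnaja1 ran the other way, lower in the cells rich in granule transcripts in 6 of 6 libraries, at 0.48 to 0.86 times. Its exact intervals in the 2 classes did not overlap in spleen of either run, and overlapped in blood and marrow of both runs. Hspa5 was lower in the granule-rich cells in 5 of 6 libraries. The exception was marrow of run 2, where it stood at 81.6 against 47.5 CPM. In spleen of run 1 the difference for Hspa5 was 35.4 against 129, and in blood of run 1, on 3 UMIs in the granule-rich cells, 21.0 against 97.1. With exact intervals that overlapped, Hspa5 was at 52.3 against 54.5 in marrow of run 1. In run 2 its intervals also overlapped in blood (89.4 against 116, on 4 UMIs in the granule-rich cells) and spleen (95.2 against 146, on 14). Hsp90ab1 had no common direction, higher in 3 libraries and lower in 3. In marrow of both runs it was lower in the granule-rich cells, at 132 against 207 and at 120 against 126. Among cells low in granule transcripts, the marrow and blood difference of Hsp90b1 was 0.31 on the log2 scale, against 0.84 over all neutrophils. For Hsp90ab1 it was 1.21 against 0.78. Neither passed in those cells (adjusted p = 0.624 and 0.336, edgeR), whereas Hspa5 did, at -0.80 (adjusted p = 0.016). Of all genes, 13.1% passed in those cells.

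**Figure D3:**
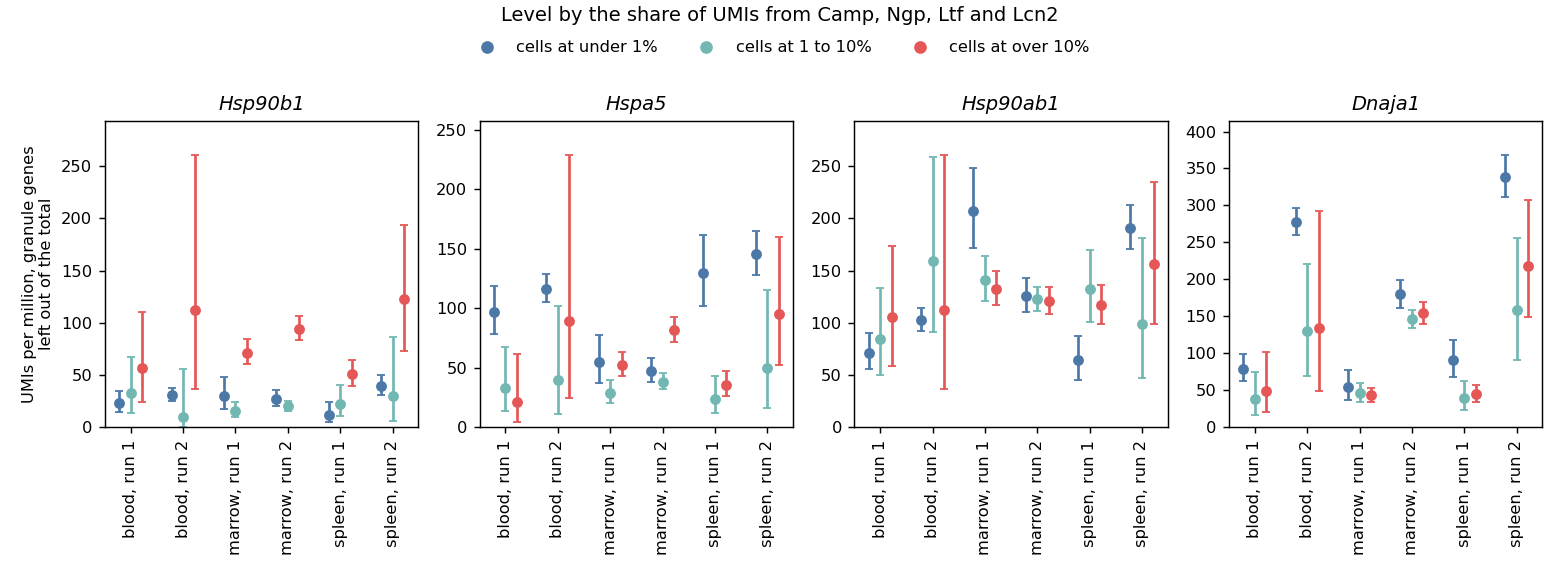
Level of Hsp90b1, Hspa5, Hsp90ab1 and Dnaja1 (y axis, CPM with the granule genes left out of the total, linear scale) in cells of each healthy library (x axis) with under 1%, 1 to 10% or over 10% of UMIs from Camp, Ngp, Ltf and Lcn2. Bars are exact 95% Poisson intervals for counting error. Hsp90b1 is highest in the cells over 10% in all 6 libraries, and Dnaja1 is highest in the cells under 1% in all 6.

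Cells carrying UMIs of at least 3 cycling genes, a split chosen after the data were seen, numbered 61 and 178 in marrow. Of these, 19 and 122 passed a quality filter on genes per cell (280 to 1842) and mitochondrial share (at most 5%). Their median before that filter was 2038 and 1715 genes, against 656 and 581 in other marrow neutrophils. Hsp90aa1 was 8.33 times higher in the cycling cells than in other marrow neutrophils of run 1 (95% counting interval 5.95 to 11.7) and 4.91 times in run 2 (4.03 to 5.98). Hsp90b1 was 1.99 and 3.84 times higher. Of the 8 members with at least 3 UMIs, 3 in run 1 and 2 in run 2 were at least 2-fold higher, where 29.2% and 23.2% of genes were. Dnaja1, at 0.77 and 0.89, and Hsp90ab1, at 1.51 and 0.91, did not share this. The S100-poor cells left out of the healthy libraries were higher for most members in all libraries but blood of run 2. Erythroid markers summed to 811560 CPM in the left-out cells of that library, and to 188625 and 225673 in those of blood and marrow of run 1. B cell markers reached 10667 and 8972 CPM in those of spleen and marrow of run 2. The part of these markers in the member values was not tested. Hspe1 was 2.80 to 45.0 times higher in them, in 6 of 6 libraries, whereas Hspa8 ranged from 0.56 to 7.87 times. Members at least 2-fold higher there in run 1 were 6 of 8 in blood (34.9% of genes), 7 of 8 in marrow (53.3%) and 8 of 8 in spleen (59.6%). In run 2 they were 2 of 9 in blood (3.21%), 8 of 8 in marrow (57.0%) and 8 of 9 in spleen (39.2%). For cycling and left-out cells alike, members were counted where each group held at least 3 UMIs. The shares cover genes at a mean of 20 CPM or more, so counts and shares do not cover the same genes. Hspa1a, 1 of the 2 in blood of run 2, rested on 17 and 10 UMIs, and 1 left-out cell held 11 of the 17.

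In the inflammation library the question was how neutrophils at inflamed sites differ from those of healthy blood. In lung and peritoneum the ER chaperone Hspa5 had the highest fold of the 7 members compared, which was not so in joint or K/BxN blood. It stood at 188 CPM in healthy blood, 133 in K/BxN blood, 239 in joint, 404 in lung and 538 in peritoneum. Lung was 2.14 times healthy blood (95% counting interval 1.83 to 2.53) and peritoneum 2.85 times (2.43 to 3.37). Joint was 1.27 times (1.10 to 1.46), and K/BxN blood was 0.70 times (0.59 to 0.84). Ordered by level, from K/BxN blood to peritoneum, no 2 neighbouring conditions had counting intervals that overlapped. The share of cells with an Hspa5 UMI, after thinning each cell to 1000 UMIs, was 17.2% in healthy blood, 11.1% in K/BxN blood, 19.8% in joint, 33.2% in lung and 38.1% in peritoneum. These rest on 354, 674, 2734, 286 and 231 cells deep enough. Among neighbours in that order of level, only joint and lung had shares whose exact 95% intervals did not overlap. Unthinned shares were 30.8%, 33.3%, 49.6%, 56.6% and 65.4%. Other lists moved with these levels. Immediate early genes summed to 8089 CPM in healthy blood and 6830 in K/BxN blood, against 12864 in joint, 16019 in lung and 12236 in peritoneum. Of the 4 granule genes 2 could be compared in lung and peritoneum, Ngp and Lcn2, and both were past 2-fold higher there, with a median log2 fold of 3.04 and 3.19. Both were also higher in K/BxN blood, at a median of 1.65. Their part in the chaperone folds was not tested. With 1 sample for each condition there is no replicate check, and no test was made.

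With 2-fold as the limit, and 7 members at a mean of 20 CPM or more, Hspa5 was the single member past it in lung, where 57.1% of 4053 genes were, and in peritoneum, where 58.0% of 4018 were. Genes past 2-fold higher were 12.1% and 11.8%. The members' count, 1 of 7, is near the share of genes that were higher and is not a result about the members. No member passed in K/BxN blood (5.96% of genes) or joint (30.0%). These counts moved by over 1.5 times in another setting. With each cell thinned to 1000 UMIs and shallower cells left out, 4 members passed in lung (Hspa5, Hsp90aa1 and Dnajb1 higher, Hsp90ab1 lower), 2 in peritoneum (Hspa5 and Hsp90aa1), 1 in K/BxN blood (Hsp90b1, lower) and 1 in joint (Dnajb1, higher). Unthinned, Dnajb1 in lung was at 0.77 times (0.44 to 1.33). Thinned, it was seen in 10 of 286 lung cells and 6 of 354 healthy blood cells, with exact intervals of the shares that overlapped. The joint call for Dnajb1 was set against the same 6 cells. Of all genes, 56.6%, 58.4%, 11.9% and 31.3% were past 2-fold in that setting, so none of these counts is a result about the members. All 4 comparisons share the healthy blood sample.

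The choice of scale bears on these folds. The median gene was at -0.86 in lung, -0.90 in peritoneum, -0.42 in joint and -0.36 in K/BxN blood on the log2 scale. Relative to that median, all 7 members lay above it in lung and in peritoneum. Hspa5 was 1.96 above it in lung and 2.41 in peritoneum, higher than 88.6% and 91.9% of genes. Hspa8 was 1.73 and 1.34 above, Hsp90aa1 1.28 and 1.77, and Dnaja1 0.85 and 1.49. Hsp90b1 was 0.36 and 1.47 above, Dnajb1 0.48 and 0.79, and Hsp90ab1 0.02 and 0.58. In this measure 3 of 7 members in lung and 5 of 7 in peritoneum lay at least 2-fold above the median, where 23.1% and 23.2% of genes did. In K/BxN blood and in joint 0 of 7 did, beside 1.73% and 14.6% of genes.

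With TMM factors, which centre the bulk of genes, 3 of 7 members in lung and 5 of 7 in peritoneum were past 2-fold, beside 41.9% and 41.4% of all genes, and Hspa5 was 4.05 times healthy blood in lung and 5.49 times in peritoneum. On that scale Hsp90ab1, Hsp90b1, Dnajb1 and Dnaja1 in lung, and Hsp90ab1 and Dnajb1 in peritoneum, turned from lower to higher, as did Hspa8 in joint and Hsp90ab1 and Dnajb1 in K/BxN blood. Of all genes past 2-fold, 21.1% were higher in lung without TMM and 57.5% with it. In peritoneum this was 20.4% and 58.0%, in joint 33.2% and 71.9%, and in K/BxN blood 9.92% and 74.2%. TMM adds 1 constant to all genes of a comparison, upward in each of the 4, so a gene that was already higher could not turn.

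**Figure D4:**
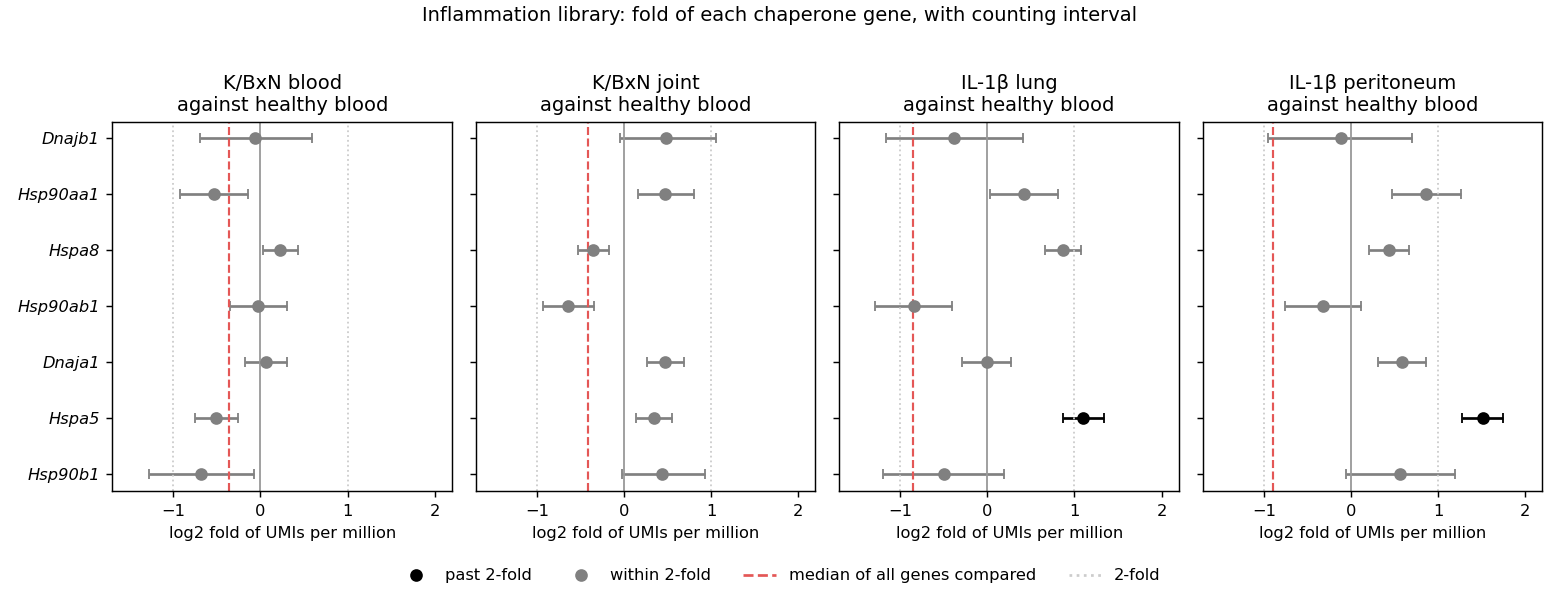
Log2 fold of CPM (x axis) for 7 chaperones (rows) in each condition against healthy blood of the same library, with 95% intervals for counting error only. The dashed line is the median of all genes compared and dotted lines mark 2-fold. Hspa5 in lung and peritoneum, in black, are the points past 2-fold, and in these panels all 7 points lie to the right of the dashed line.

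Joint neutrophils were also set against blood of the arthritic animals, where the median gene did not shift (-0.01). Hsp90b1 was 2.18 times higher in joint (1.67 to 2.90) and Hsp90aa1 2.02 times (1.70 to 2.41), so 2 of 7 members passed 2-fold, beside 20.3% of 3940 genes (13.1% higher). Both also lay 2-fold above the median gene, as 13.2% of genes did. Hspa5 was 1.80 times higher (1.61 to 2.02), Dnajb1 1.46 times (1.13 to 1.91) and Dnaja1 1.33 times (1.21 to 1.47). Hspa8, at 0.67 times (0.62 to 0.73), and Hsp90ab1, at 0.65 times (0.57 to 0.76), were lower. The 2 cytosolic HSP90 genes thus differed in direction. Averaging over cells rather than summing left no member past 2-fold.

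Other ER genes at the inflamed sites were uneven. Xbp1, whose spliced form drives the unfolded protein response, was 9.83 times higher in lung and 5.24 times in peritoneum than in healthy blood. P4hb, protein disulfide isomerase, was 5.03 times higher in lung and 4.29 times in joint, and Manf was 3.15 times higher in peritoneum. Ddit3 was at 0.23 times in peritoneum and Dnajb11, a BiP co-chaperone, at 0.41 times in lung. In all, 2 of 11 ER genes were past 2-fold higher and 2 lower in lung, and 3 higher and 1 lower in peritoneum. In joint 1 of 12 was higher, P4hb, and 1 lower, Herpud1, which acts in ER-associated degradation, at 0.45 times, beside 9.96% and 20.1% of all genes. Of all genes, 12.1% were past 2-fold higher and 45.0% lower in lung, and 11.8% and 46.2% in peritoneum.

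Of the co-chaperones, 7 of 13 were past 2-fold lower in lung and 8 of 12 in peritoneum, with none higher. The count in lung is near the 45.0% of all genes. Ahsa1, which stimulates the HSP90 ATPase, was at 0.20 times in lung and 0.22 times in peritoneum. TRiC and prefoldin subunits were past 2-fold lower for 6 of 7 in lung and 5 of 7 in peritoneum, beside the same 45.0% and 46.2% of all genes, with Cct7 at 0.19 and 0.15 times. In joint 1 of 12 co-chaperones and 2 of 9 TRiC and prefoldin subunits were lower and none higher, near the 20.1% of all genes that were lower, with a median log2 fold of -0.45 and -0.77 against -0.42. The median log2 fold of co-chaperones at the other sites was -1.09 in lung and -1.36 in peritoneum, and that of TRiC and prefoldin -1.54 and -1.31, beside the -0.86 and -0.90 of all genes. Of 4 other heat shock response genes compared, 3 were past 2-fold higher and none lower in lung, 2 higher and 1 lower in peritoneum, and 2 higher and none lower in joint. The gene that was lower in peritoneum was Ubb, at 0.31 times. Hspa4l, an HSP110, was 5.40, 3.61 and 4.70 times higher in lung, peritoneum and joint. Sqstm1, an autophagy receptor, was 2.24, 4.43 and 2.09 times higher.

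Across the 6 healthy libraries and 5 conditions, Hspa5 varied 13.4-fold, from marrow of run 1 to peritoneum. Healthy blood alone was at 76.5 and 113 CPM in runs 1 and 2 and at 188 in the inflammation library. The study's methods name v2 chemistry for the former and v3 for the latter, and the part of chemistry was not tested. The genes whose level followed it most closely by rank, among 2000 genes with a mean of 50 CPM or more, were Birc3, Ccnl1, Ddx3y, Map2k3 and Rel, each with a Spearman correlation of 0.991 over the 11 groups. Of the chaperones compared, Hsp90aa1 was at 0.927 (rank 116), Dnaja1 at 0.645, Hspa8 at 0.527 and Hsp90ab1 at -0.509. These are descriptions over groups that share mice, runs and libraries.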

How the data were processed

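Neutrophil RNA of 7 libraries was sequenced on the 10x platform. The authors deposited UMI count matrices with 1 row per gene, made with Cell Ranger on mm10, per the labels, with no normalization. The study's methods name other Cell Ranger releases for each run, v2 chemistry for healthy tissues and v3 for inflammation. Files of run 1 list only genes with 11 or more UMIs. An unlisted gene was treated as missing, so the healthy fit was restricted to genes listed in all 6 files, which was decided after the files were seen.

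UMI counts were summed per library over cells with at least 3% of UMIs from S100a8 and S100a9, or per condition over cells annotated as granulocytes. No doublet caller was run: the study's methods gate out doublets at the sort and remove hashtag doublets. Healthy tissues were compared with edgeR 4.0.16 (R 4.3.3; TMM, filterByExpr, quasi-likelihood test, Benjamini-Hochberg, threshold 0.05), run as a block, because the 3 tissues within each run were taken from 1 pool of mice, per the study's methods. Samples of a run deviated together (correlations of 0.680, 0.688 and 0.662 over 6588 genes). DESeq2 1.42.0 was an alternative. The p-values rest on 2 pools of mice per tissue. Conditions of the inflammation library had no test: exact 95% Poisson or conditional binomial intervals cover counting error only, counts under 3 UMIs were set to 3 in folds, and genes with a mean of at least 20 CPM were compared. Scripts were tested on simulated data. The alternatives were another filter, size factors, cell cuts, thinning, TMM between conditions and leaving out each library.

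The genes and lists were chosen with earlier results of these data known. All 10 members are described. Of each other list, at most the 3 genes with the largest changes among those called are named. Genes most like Hspa5 are the 5 with the highest Spearman correlation, ties included; those most like Hspa1a were not computed, since run 1 does not list it and it is under 50 CPM. Gene positions are from GENCODE M21 and promoters from RefSeq. Promoters of Hspa8, Hsp90aa1 and Hsp90ab1 were not used here.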

Additional observations from a re-analysis of the deposited data

How the results depend on the processing

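The marrow and blood calls depended on the processing. With no replicate block 0 of 8 chaperones and 372 genes were called in marrow against blood, where 3 and 2060 were called with it, and 0 genes in each spleen contrast, where 18 and 355 were called. DESeq2 called 0 chaperones and 1321 genes in marrow against blood and 30 genes in spleen against blood. Limiting the cells to those low in granule transcripts gave 1 chaperone (Hspa5) and 751 genes in marrow against blood, 4 genes in spleen against blood, and 1 chaperone (Hspa5) and 655 genes in spleen against marrow. Thinning to 500 UMIs gave 1 chaperone and 831 genes in spleen against marrow. Spleen against blood gave 65 genes at the 1% S100 limit, 7 with the cell quality filter and 4 with unlisted genes of run 1 set to 0, an alternative chosen after seeing the data, which gave 230 in spleen against marrow. Leaving out 1 library at a time, chaperones called ranged from 0 to 5 in marrow against blood and from 0 to 2 in spleen against marrow, and genes called from 392 (without blood of run 1) to 2656 in marrow against blood, from 0 to 231 in spleen against blood and from 58 to 1200 in spleen against marrow.

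In the inflammation library, thinning to 1000 UMIs put 1 member past 2-fold in K/BxN blood and in joint, 4 in lung and 2 in peritoneum, against healthy blood, beside 11.9%, 31.3%, 56.6% and 58.4% of genes. A limit of 5 CPM put 2 of 8 past it in lung and in peritoneum (61.8% and 63.7% of genes), TMM put 3 and 5 of 7 (41.9% and 41.4%), and averaging over cells left 0 in joint against K/BxN blood. With TMM 3.12% of genes were past 2-fold in K/BxN blood against healthy blood, where 5.96% were without it. For this comparison the share was 14.2% at the 5 CPM limit and 9.07% when averaging over cells. No other count of members, or of genes called between healthy tissues, moved by over 1.5 times under the alternatives run. The cause of these changes was not tested. Depth limits Hspa1a, Hspa1b and Hspe1, whose levels rest on few UMIs.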
